A study of Mus musculus with 199 samples.

Results

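The regions described are the 2 Mb chromosome domains centred on 8 genes that maintain pluripotency in mouse embryonic stem cells, Pou5f1, Sox2, Nanog, Sall4, Klf4, Esrrb, Prdm14 and Tfcp2l1. A domain comprised each 40 kb window that started within 1 Mb of a fixed position at its gene on the mm9 assembly. This gave 402 of the 68162 windows of the table of libraries that failed quality control, with 50 or 51 windows in each domain. The rest of the same 7 chromosomes held 25451 windows with at least 50% determined bases, and the 402 domain windows all passed this limit.

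Pluripotency is the capacity of a cell to form every tissue of the embryo, and in embryonic stem cells it is held by a network of transcription factors that bind to and activate one another's genes. Pou5f1 (also called Oct4) and Sox2 bind DNA as a pair, and Nanog, a homeobox protein, stabilizes the self-renewing state. Klf4, Esrrb and Tfcp2l1 act downstream of the LIF and Wnt signals in culture medium, Sall4 is a zinc finger partner of Pou5f1, and Prdm14 represses genes of DNA methylation and differentiation. The enhancers of such genes can lie many kilobases away, and physical contact within the surrounding domain is one route by which they reach their promoters.

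Genome architecture mapping (GAM) reads such contacts from thin slices of nuclei. A slice (nuclear profile) is cut from a cell by cryosectioning and laser microdissection, its DNA is amplified and sequenced, and a window is called where its reads are found. Neighbouring windows are captured together more often than distant windows because they lie in the same slice. In the multiplex form used here several profiles share 1 tube.

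All libraries with nuclear profiles came from 46C cells, a mouse embryonic stem cell line of the 129/Ola strain with a green fluorescent protein gene knocked into Sox1. Cells were grown with serum and LIF and moved to serum-free ESGRO medium before harvest. Per the labels, sections were 220 nm thick and 4 profiles were placed in each cap, whereas the design text of the series gives a lower average. There were 186 libraries of such caps (4np libraries), 11 water controls without a profile and 2 controls of human genomic DNA, in 35 groups of 11 experiments, and 11 groups were a single library.

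The experiments varied how caps were stained, frozen, digested and amplified. Those used for comparisons were propidium iodide staining with caps frozen or not frozen (21 libraries each), crystal violet (16) against unstained sections (5), eosin in ethanol against eosin in water (8 each), proteinase K at 3, 4 or 8 µl (groups labelled mdc, 7 each) and a full collection of 34 4np libraries with 6 water controls. The 4np libraries of all experiments were pooled for the other results. Those pooled but not compared included SYBR Gold staining (15 stained and 3 unstained libraries by title) and amplification for 20, 23 or 25 cycles. They also included reagent protocols a and c, a large and a small kit, and proteinase K at 1 or 2 µl. Early or late freezing, freezing or not after incubation, and unstained propidium iodide and eosin controls completed the pool. No label says that libraries of a group came from separate cultures, so p-values measure the spread between caps. Each library holds a slice of very few nuclei. The 4np libraries called a median of 2.59% of autosomal windows, with a range of 0.00167% to 29.4%, and 115 of them called at least 1%. The calls carry no read depth, so a domain that was not in the slice and a domain whose DNA was lost cannot be told apart.

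Promoter sequences are printed for the gene whose own window stood out most, Sox2, and for the 3 genes whose promoters held a match to a binding motif of the network. They run from 250 bases before to 50 bases after the annotated start on mm9, 5′ to 3′ on the strand of the gene, and capitals mark the motif. Sox2 is on the plus strand (chr3:34548677-34548976), Nanog on the plus strand (chr6:122657257-122657556), Sall4 on the minus strand (chr2:168593394-168593693) and Esrrb on the plus strand (chr12:87701817-87702116).
Sox2: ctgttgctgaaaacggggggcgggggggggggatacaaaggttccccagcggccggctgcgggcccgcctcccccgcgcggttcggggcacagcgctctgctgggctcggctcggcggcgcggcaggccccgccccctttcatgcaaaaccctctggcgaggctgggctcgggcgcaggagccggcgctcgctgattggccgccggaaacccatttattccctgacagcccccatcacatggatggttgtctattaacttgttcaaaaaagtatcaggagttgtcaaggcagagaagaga
Nanog: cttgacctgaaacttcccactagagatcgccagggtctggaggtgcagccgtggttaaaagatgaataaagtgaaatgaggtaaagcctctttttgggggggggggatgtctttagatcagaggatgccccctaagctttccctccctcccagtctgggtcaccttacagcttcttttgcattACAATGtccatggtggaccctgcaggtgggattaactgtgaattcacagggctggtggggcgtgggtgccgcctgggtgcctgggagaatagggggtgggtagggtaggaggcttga
Sall4: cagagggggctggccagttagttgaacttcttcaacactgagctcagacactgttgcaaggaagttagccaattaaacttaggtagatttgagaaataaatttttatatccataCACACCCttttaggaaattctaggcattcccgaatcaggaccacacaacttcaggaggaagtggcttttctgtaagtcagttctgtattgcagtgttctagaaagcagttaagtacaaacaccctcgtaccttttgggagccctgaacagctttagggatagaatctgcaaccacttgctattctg
Esrrb: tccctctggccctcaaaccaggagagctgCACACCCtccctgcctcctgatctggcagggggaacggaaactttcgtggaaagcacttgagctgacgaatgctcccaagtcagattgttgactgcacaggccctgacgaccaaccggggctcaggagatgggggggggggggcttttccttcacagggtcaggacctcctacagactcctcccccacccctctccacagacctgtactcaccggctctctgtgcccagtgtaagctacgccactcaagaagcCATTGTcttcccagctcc

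On both strands, the POU octamer ATGCAAAT, the SOX core CATTGT, the KLF motif GGGTGTG and the ESRRB motif AAGGTCA were searched. The Nanog promoter held the SOX core on the opposite strand at base -67 from the start. The Sall4 promoter held the KLF motif on the opposite strand at -136, and the Esrrb promoter held it at -221, also on the opposite strand, beside a SOX core at +33 on its own strand. These letters did not occur in the promoters of Sox2, Pou5f1, Klf4, Prdm14 and Tfcp2l1. Of 22350 promoters of the same length, 1.73% held the octamer, 10.6% the SOX core, 8.15% the KLF motif and 3.92% the ESRRB motif. No matches overlapped. A match is a run of letters and was not read as a bound site.

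The domains differed in how many genes they held. The Pou5f1 domain (chr17:34640001-36680000), in the major histocompatibility region, had 118 protein-coding genes and 48.2% GC. The Klf4 domain (chr4:54560001-56560000) had 3 and the Sox2 domain (chr3:33560001-35560000) had 5, each at 42.6% GC. Nanog (chr6:121680001-123680000) had 32 genes at 41.2% GC, Esrrb (chr12:86800001-88800000) 30 at 46.6% and Sall4 (chr2:167600001-169600000) 15 at 48.4%. The chromosome 1 domains of Prdm14 (chr1:12120001-14120000) and Tfcp2l1 (chr1:119520001-121560000) had 7 and 10 genes at 41.9% and 44.4% GC. Across 1240 other blocks of 51 windows on chromosomes 1 to 19 and X, the median was 12 genes and 41.4% GC, against medians of 12.5 genes and 43.5% over the 8 domains.

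The first question was whether these domains were captured at the rate of their chromosomes. Most libraries missed most domains. Of the 186 4np libraries, 26 called no domain window, the median library touched 3 of the 8 domains and 4 touched all 8. The share of the 402 windows called had a median of 2.61% over libraries and reached 27.6%, or 111 windows, in replicate 14 of the full collection. Libraries called 5.73% ± 6.84 (SD, n = 186) of domain windows and 4.91% ± 5.65 of the rest of the 7 chromosomes. The domain share was the higher in 100 libraries, the lower in 84 and equal in 2.

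Prdm14 and Tfcp2l1 had the highest rates of the 8 domains. The Prdm14 domain was called at 6.85% ± 13.2 (SD, n = 186) against 5.20% for the rest of chromosome 1, a difference of 1.65 ± 0.68 (SE) percentage points. Its permutation p was 0.0138, with an adjusted p of 0.154 over all 1248 blocks. The Tfcp2l1 domain was called at 6.83% ± 13.9, a difference of 1.63 ± 0.76 points (permutation p = 0.0319, adjusted p = 0.229). Both rates were above those of all 90 other blocks of chromosome 1. Only 89 libraries called any Prdm14 window and 74 any Tfcp2l1 window, so the median library was at 0 for each, as for the other 6 domains. Libraries with any call had a median of 4 Prdm14 or 5 Tfcp2l1 windows, and the highest called 35 windows of each.

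On the log2 scale, over the 115 libraries with at least 1% coverage, the mean ratio of domain to chromosome was 0.08 ± 0.17 for each of the 2 domains (adjusted permutation p of 0.743 and 0.738). Leaving out single sets of libraries moved both values. The pair of libraries amplified for 25 cycles called 30 and 35 Prdm14 windows, and without them the Prdm14 difference was 1.09 points (adjusted p = 0.281) and that of Tfcp2l1 1.42 (adjusted p = 0.271), an alternative chosen after seeing the data. Without the whole cycle test the Prdm14 difference was 1.01 points. Without the propidium iodide experiment the Tfcp2l1 difference was 0.437 ± 0.719 points (adjusted permutation p = 0.850). Without the proteinase K titration the Tfcp2l1 difference was 2.53 ± 0.81 points and passed the test (adjusted permutation p = 0.0266), against 0.561% of blocks called above. Within the propidium iodide experiment it was 5.59 ± 2.17 points, and within the proteinase K titration -2.87 ± 1.93.

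The other 6 domains were closer to their chromosomes. Sall4 was called at 5.84% ± 11.7 (difference 0.813 ± 0.730 points), Esrrb at 5.78% ± 13.2 (0.747 ± 0.887) and Pou5f1 at 5.47% ± 10.9 (0.631 ± 0.547). Nanog and Sox2 were each called at 5.01%, with differences of 0.598 ± 0.578 and 0.391 ± 0.625 points. Klf4, at 5.05% ± 11.5, was the only domain below its chromosome, at -0.101 ± 0.629. Each of these 6 differences was within 2 SE of 0 at this width, and neighbours in this order did not differ beyond their spread. In every domain fewer libraries were above their own chromosome than below it, from 47 above and 125 below for Nanog to 67 above and 108 below for Prdm14. With domains of 0.5 Mb on either side the Nanog difference was 2.30 ± 0.81 points (permutation p = 0.00465, adjusted p = 0.0836), that of Prdm14 2.32 ± 0.88 and that of Tfcp2l1 1.30 ± 0.82.

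No domain passed the adjusted test, against 0.481% of all 1248 blocks called above the rest of their chromosome and 3.53% called in either direction. At an unadjusted p under 0.05, 2 of 8 domains were above the rest, against 6.81% of blocks. The difference was above 0 in 7 of 8 domains, against 49.8% of blocks. The mean over the 8 domains was 0.794 ± 0.234 points (SE), and the mean log2 ratio of domain to chromosome, over the 115 libraries with at least 1% coverage, was -0.12. On that log2 scale 0 domains were called, against 0.881% of blocks called above and 24% called below. Klf4 had the lowest p there, at -0.42 ± 0.18 (permutation p = 0.0239, adjusted p = 0.0747). GC content rose with the detection difference across 1161 other autosomal blocks (Pearson r 0.50, Spearman rho 0.53), which share libraries. Its part in the difference was not tested.

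**Figure D1:**
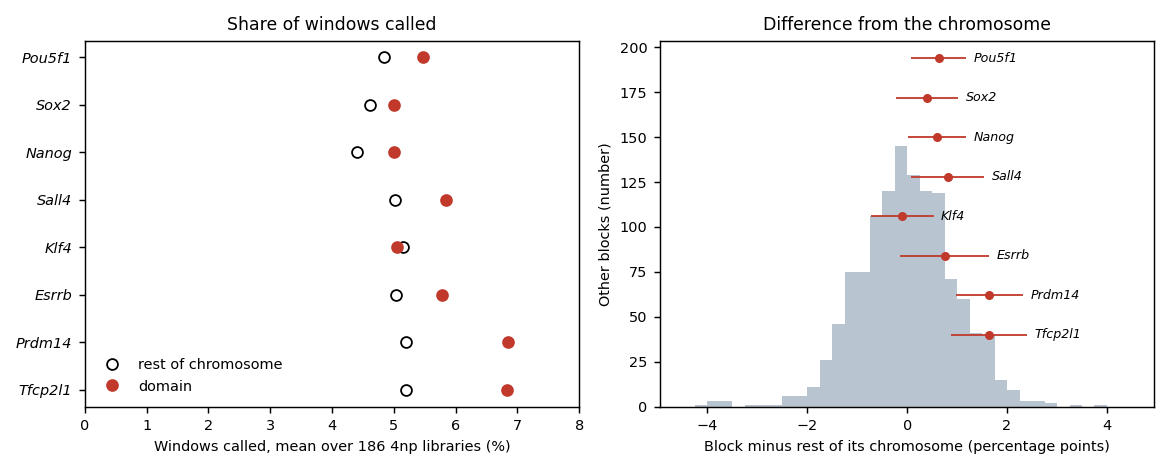
Left, mean share of windows called (percent, 186 4np libraries) in each domain (filled circles) and in the rest of its chromosome (open circles). Right, the difference in percentage points with 1 SE over a histogram of the 1240 other blocks. Prdm14 and Tfcp2l1 lie 1.65 and 1.63 points above chromosome 1, and Klf4 is the only domain below 0.

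The largest captures covered most of a domain. Replicate 2 of the frozen-late group called 46 Esrrb windows, 92% of that domain. The largest Klf4 capture was 37 windows, with an unbroken run of up to 840 kb in a library. The longest run was 1160 kb for Prdm14, 1000 kb for Tfcp2l1, 760 kb for Esrrb, 600 kb for Sox2 and 480 kb for Sall4. For Nanog and Pou5f1 it was 440 kb.

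Water controls were also called in the domains. They called a median of 0.498% of domain windows, 4 of 11 called none, and 2 of them called 33.8% and 24.4%. The 2 controls of human DNA called 0% and 0.249%.

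Single windows were then compared with their chromosome in the same libraries. The window that holds the Sox2 start was called in 20 of 186 libraries, 10.8% (Wilson 95% interval 7.07% to 16.0%), against 8.60 expected. It passed the exact Poisson-binomial test across all windows (adjusted p = 0.0356) and was the most often called window of its domain. Its 20 libraries lay in 14 of the 4np groups and in 9 of the 11 experiments, with 4 of 43 in the propidium iodide experiment, 3 of 31 in the proteinase K titration, 3 of 17 in the eosin test and 1 of 34 in the full collection. No water control called it. The call was lost when the expectation was taken from all autosomes (9.16 expected, adjusted p = 0.0857) and in libraries with at least 1% coverage (18 libraries, adjusted p = 0.145).

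Of the 8 gene windows, 1 was called above expectation and 0 below, against 0.277% and 0.795% of 63918 windows. Counts for the others were 16 libraries for Tfcp2l1 (9.71 expected), 14 for Klf4 (9.59), 13 for Esrrb (9.39), 13 for Prdm14 (9.71) and 12 for Nanog (8.22). Pou5f1 had 9 (9.03 expected) and Sall4 7 (9.36 expected). The lowest adjusted p of these 7 was 0.637, for Tfcp2l1.

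The Prdm14 domain held the most frequently called window of all 402. It lies 480 kb before the gene window (chr1:12600001-12640000), overlaps no protein-coding gene and was called in 32 libraries, 17.2%, against 9.71 expected (adjusted p = 2.50e-07). It was also called in 2 of 11 water controls. The window 40 kb before the gene window (chr1:13040001-13080000) was called in 22 libraries (adjusted p = 0.0235). In the Nanog domain, a window 360 kb after the gene window (chr6:123000001-123040000), with Clec4b1, a C-type lectin gene, was called in 20 (adjusted p = 0.0235). With the Sox2 window, these were the 4 windows of 402 called above expectation, against 0.277% of all windows.

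The 5 windows of 402 called below expectation, against 0.795% of all windows, were consecutive, 720 to 880 kb after the Nanog window (chr6:123360001-123560000), and lay in a cluster of vomeronasal receptor genes that includes Vmn2r20, Vmn2r21 and Vmn2r22. They were called in 0 of 186 libraries (adjusted p = 0.0283 each), and 3 calls, the limit that a count of 0 allows, would be 1.61% of libraries. No water control called any of them.

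The most called window elsewhere was 960 kb after the Pou5f1 window in that domain (19 libraries), 560 kb before Klf4 at Zfp462, a zinc finger gene (18), 1040 kb after Esrrb at Sptlc2, an enzyme of sphingolipid synthesis (20, adjusted p = 0.0917), and 400 kb before Tfcp2l1 (19). In the Sall4 domain, windows 600 kb before and 40 kb after the gene window tied at 16. The least called were 640 kb after Pou5f1, with Gm8909 and 2410017I17Rik (2 libraries), 360 kb before Sox2 in Sox2ot, the long noncoding gene that spans Sox2 (4), and 120 kb after Sall4 at Zfp64, another zinc finger gene (4). In the Klf4 domain, windows 400 and 520 kb after the gene window had 4 each. Minima were 5 libraries at 800 kb before Esrrb, 5 at 960 kb before Prdm14 and 7 at 560 kb after Tfcp2l1. The median domain window was called in 10 libraries (quartiles 8 to 13), and the median window of all in 9 (quartiles 6 to 11).

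Windows above their expectation were 40 of 50 in the Prdm14 domain, 43 of 51 in Tfcp2l1 and 34 of 50 in Sall4, and 18 of 50 in Klf4. The total was 255 of 402, against 30814 of 63918 in all. Windows of a domain share slices and are not independent.

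**Figure D2:**
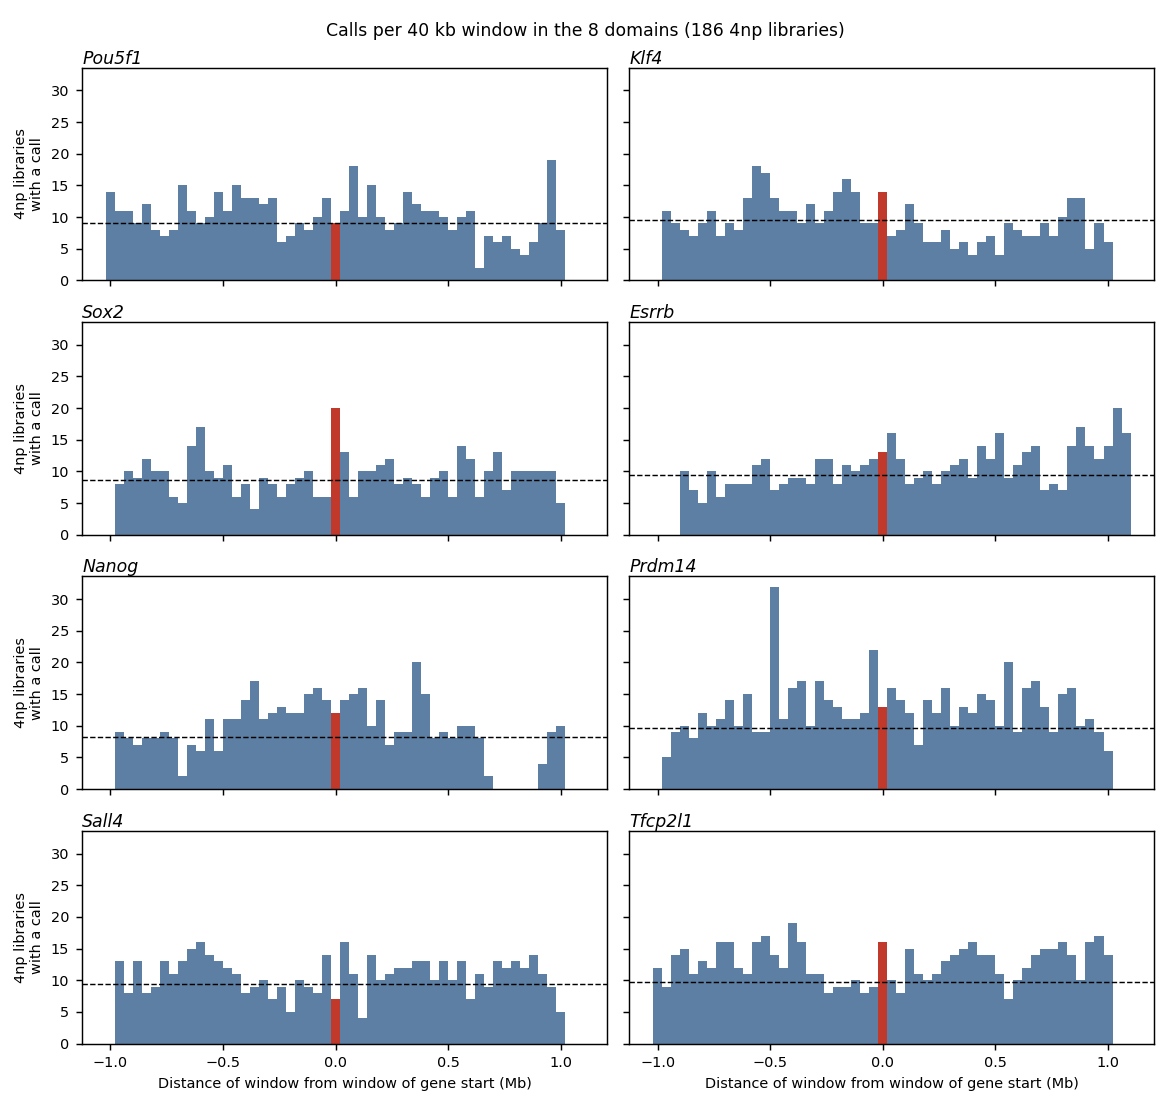
Number of 4np libraries (of 186) that called each 40 kb window, by distance in Mb from the window of the gene start (red). The dashed line is the number expected for the gene window from the coverage of its chromosome. The Sox2 window stands at 20 libraries, a Prdm14 window at 32, and 5 windows right of Nanog at 0.

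Other genes of the network were placed beside the 8. Within the domains, 3 others were listed, all in the Nanog domain. Dppa3, a factor of the egg and early embryo, and Gdf3, a ligand of the TGF-beta family, share a window (chr6:122560001-122600000) called in 16 libraries against 8.22 expected (adjusted p = 0.368). Phc1, a Polycomb protein, had 17 (chr6:122280001-122320000, adjusted p = 0.234). A list of 46 pluripotency genes outside the 8, in 44 windows, had 0 windows called in either direction by the Poisson-binomial test and 8 with an unadjusted p under 0.05, against 8.05% of all windows. Of these 44 windows, 40 were above expectation, against 48.2% of all windows, with a median of 13 libraries (range 6 to 20) and a median ratio to expectation of 1.41. The ratio was 0.973 over all windows. The highest were Zfp281 (20 libraries, adjusted p = 0.116) and Rif1 (19, adjusted p = 0.184).

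A second list held 40 genes of differentiated lineages, of which 39 were matched, in 38 windows. It had 0 windows called in either direction and 2 with an unadjusted p under 0.05, near the 8.05% of all windows. Of the 38, 21 were above expectation, near the 48.2% of all windows, with a median of 10 libraries, and the highest was Lhx1, a homeobox gene of mesoderm, with 20 (adjusted p = 0.257). The median GC content was 46.4% for the pluripotency windows, 47.0% for the lineage windows and 41.1% for all windows. The difference between the lists was not tested.

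Local contacts were then measured by D′, the normalized linkage disequilibrium. It is 1 when a pair of windows is captured together as often as their rates allow and 0 when they are independent. At these call rates a pair never captured together scores -1, however few libraries called either window. In each domain D′ was lower at 1000 kb than at 40 kb. At 40 kb it ranged from 0.43 ± 0.12 (jackknife SE over 186 libraries) in Sox2 to 0.57 ± 0.04 in Prdm14. At 400 kb it was 0.42 in Tfcp2l1, 0.39 in Klf4, 0.36 in Prdm14, 0.36 in Esrrb, 0.30 in Nanog, 0.28 in Sox2, 0.22 in Pou5f1 and 0.20 in Sall4. At 1000 kb it ranged from 0.02 in Pou5f1 to 0.24 in Klf4. Random window pairs on different chromosomes averaged -0.289 ± 0.052, a mean that takes in scores of -1 and was not read as avoidance.

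Linkage at 40 kb was more than 2 SE above that level in 8 of 8 domains, against 99.1% of blocks with enough pairs. At 400 kb it was again 8 of 8, against 90.2% of blocks. At 1000 kb it was 7 of 8, all but Sall4, against 69.2%.

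The domains were then set against their own chromosomes at matched distance. At 40 kb, Prdm14 exceeded the rest of chromosome 1 by 0.07 ± 0.04, Nanog its chromosome by 0.06 ± 0.06 and Tfcp2l1 by 0.04 ± 0.04. Mean differences over the domains were 0.030 ± 0.027 at 40 kb, 0.037 ± 0.035 at 400 kb and -0.037 ± 0.042 at 1000 kb. With windows called in at least 5 libraries they were 0.015 ± 0.024, 0.0089 ± 0.034 and -0.064 ± 0.038. No domain was more than 2 SE above the rest at 40, 400 or 1000 kb, against 3.46%, 3.96% and 3.98% of blocks, and none was more than 2 SE below it, against 1.37%, 2.27% and 3.15%. Without the proteinase K titration, Prdm14 was above at 40 kb (0.20 ± 0.10) and Tfcp2l1 at 400 kb (0.24 ± 0.09) and 1000 kb (0.20 ± 0.09), against 2.99%, 3.74% and 3.41% of blocks. Without the early freezing test, or without freezing after incubation, Tfcp2l1 was above at 400 kb (0.10 ± 0.05 in each), against 4.21% of blocks. At 1600 kb, with 10 or 11 window pairs in most domains, Sall4 was above its chromosome by 0.25 ± 0.11. It was the only domain called more than 2 SE above, against 4.99% of blocks. Nanog had 5 pairs, below the 10 that a call needed.

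Linkage was also measured as log2 of observed over expected co-segregation given the coverage of each library. The most this ratio can reach falls as windows are called more often, and the part of call rate here was not tested. Other blocks had median differences of 0.04 at 40 kb, 0.02 at 400 kb and 0.01 at 1000 kb. The mean difference over the 8 domains then turned to -0.13 ± 0.04 at 40 kb and -0.22 ± 0.06 at 400 kb. At 1000 kb, where it was already below 0, it was -0.33 ± 0.08. Prdm14 was more than 2 SE below chromosome 1 at 40 kb (-0.23 ± 0.12), against 4.98% of blocks. Pou5f1, Nanog and Prdm14 were below at 400 kb, at -0.41 ± 0.18, -0.43 ± 0.16 and -0.38 ± 0.14, against 5.42%. Pou5f1, Prdm14 and Tfcp2l1 were below at 1000 kb, at -0.55 ± 0.24, -0.48 ± 0.21 and -0.56 ± 0.20, against 4.48%.

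**Figure D3:**
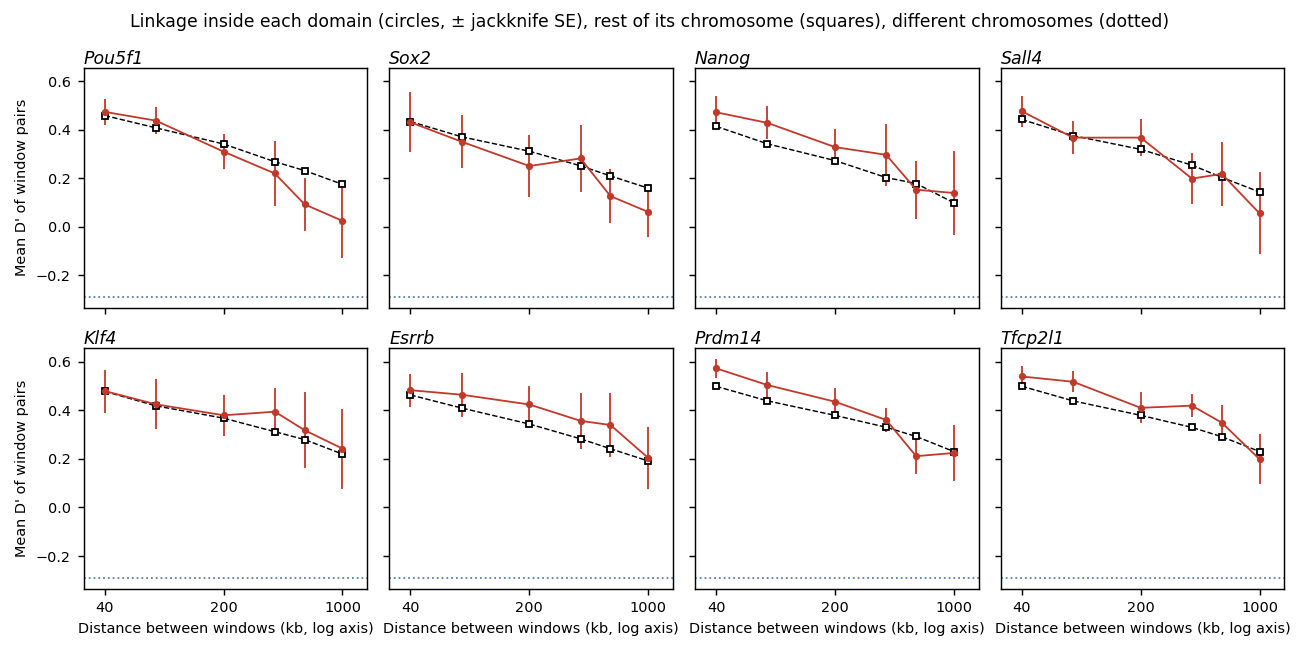
Mean D′ of window pairs by distance (kb, log axis) inside each domain (circles, bars 1 jackknife SE over 186 libraries), in the rest of its chromosome (squares) and on different chromosomes (dotted line). D′ in the domains lies between 0.43 and 0.57 at 40 kb and between 0.02 and 0.24 at 1000 kb.

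Viewed from the gene windows, libraries that called the Esrrb window also called a mean of 43.8% of windows 40 to 200 kb away and 30.8% of those at 520 to 1000 kb. For Prdm14 these shares were 40.8% and 29.8%, and for Nanog 40.0% and 10.0%. The Nanog share at the longer distance includes the 5 windows that no library called, and was 12.5% over the other 20. The 20 libraries of the Sox2 window called 24.0% of windows at 40 to 200 kb and 17.2% at 520 to 1000 kb. Pou5f1, Sall4, Klf4 and Tfcp2l1 lay at 35.6%, 37.1%, 34.3% and 28.8% at the shorter distance. The number of libraries behind each share is 7 to 20, and a gene window called more often has a lower share at equal linkage. D′ is scaled to the call rates but is not free of them at low counts. With windows at 40 to 200 kb, mean D′ was 0.51 for the Esrrb gene window, 0.50 for Sox2 and 0.45 for Klf4. It was 0.42 for Tfcp2l1 and 0.41 for Prdm14. Sall4 and Nanog were each at 0.36 and Pou5f1 at 0.33.

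Contacts between domains were compared with the coverage of each library. Prdm14 and Tfcp2l1, 107 Mb apart on chromosome 1, were both captured in 53 libraries and had a ratio of observed to expected co-segregation of 1.47 (log2 0.55 ± 0.19, jackknife SE). Pou5f1 and Klf4, on chromosomes 17 and 4, were both captured in 41 libraries and had a ratio of 1.41 (log2 0.50 ± 0.19). These were the 2 of 28 pairs more than 2 SE above expectation, against 2% of 645139 pairs of blocks on different chromosomes. Sall4 and Esrrb came next at 0.12 ± 0.24 (log2).

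The lowest pairs all involved Sox2, with log2 ratios of -0.87 ± 0.38 with Prdm14, -0.59 ± 0.28 with Nanog and -0.57 ± 0.30 with Sall4. The first 2 of these were more than 2 SE below expectation, against 4.49% of block pairs. The median of the 28 log2 ratios was -0.24, against -0.06 over the block pairs, and 3 of 28 were above 0.

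Pair values were also set beside other pairs of chromosome 1 and against the coverage of their own chromosomes. Among 983 chromosome 1 block pairs at least 100 Mb apart the median log2 ratio was 0.17, with 9.77% more than 2 SE above 0, and 103 were at or above the value of Prdm14 and Tfcp2l1. With coverage taken over the chromosomes of the pair, that pair was at 0.06 ± 0.16 and Pou5f1 with Klf4 at 0.352 ± 0.175, the first within 2 SE of 0 and the second just beyond it. Sox2 with Prdm14 was then at -0.70 ± 0.37, within 2 SE of 0, and Sox2 with Nanog at -0.61 ± 0.26, beyond it. Without the SYBR Gold test Sox2 with Nanog was at -0.51 ± 0.29, within 2 SE of 0. Without the proteinase K titration 0 of 28 pairs were above expectation, against 13173 of 645139 block pairs. With coverage of the chromosomes, 17213 of 645139 block pairs were above and 24460 below.

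**Figure D4:**
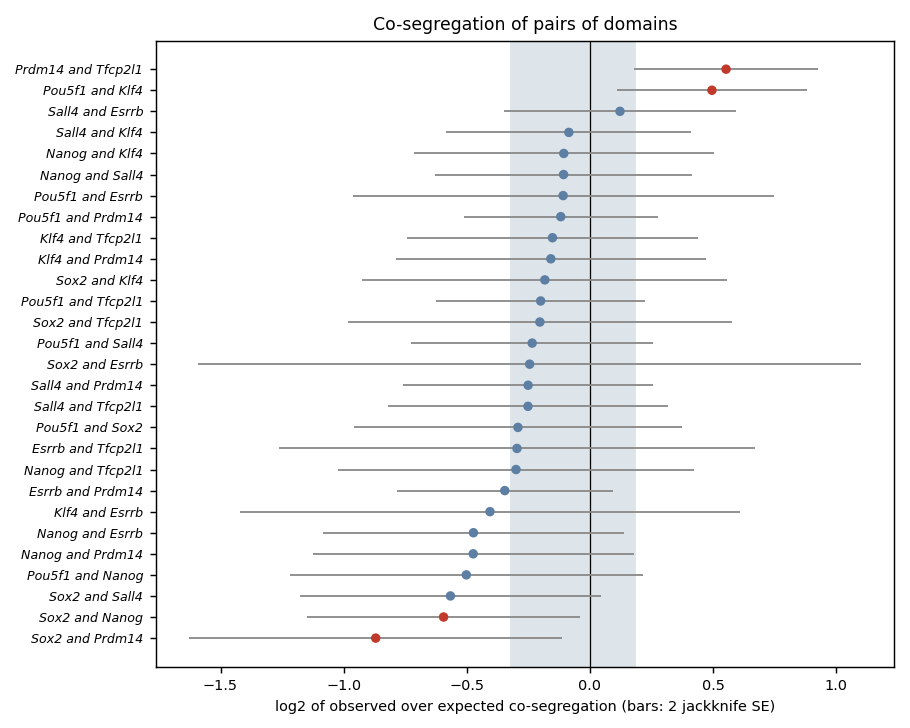
Log2 of observed over expected co-segregation for the 28 pairs of domains, bars 2 jackknife SE over 186 libraries. Red marks the 4 pairs whose bars do not reach 0, and the shaded band holds the middle quartiles of block pairs on different chromosomes. Prdm14 with Tfcp2l1 and Pou5f1 with Klf4 lie above 0, and Sox2 with Prdm14 and with Nanog below it.

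The last comparisons asked whether handling of the caps changed how much of the domains was captured. With propidium iodide, unfrozen caps called a mean over domains of 10.3% ± 7.31 (SD, n = 21) and frozen caps 7.25% ± 6.72 (n = 21), a difference of 3.05 ± 2.17 points (SE), with all 8 domains higher in unfrozen caps. As share minus that of the chromosome the difference was 0.0542 points with 1 domain higher, and on the log2 scale it was -0.07 with 4 higher. Pou5f1 differed most clearly, at 12.6% ± 15.7 against 3.45% ± 5.37. Its lowest, median and highest values were 0%, 5.88% and 43.1% unfrozen, and 0%, 1.96% and 21.6% frozen, so the groups overlapped (permutation p = 0.0157, adjusted p = 0.457). No domain was called, against 0% of blocks in either direction, and 1 had an unadjusted p under 0.05, against 9.38% of blocks.

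Crystal violet libraries held little of any domain, at 0.686% ± 0.412 (SD, n = 16), against 8.46% ± 10.8 (n = 5) in unstained sections, a difference of -7.77 ± 4.82 points (SE). Unstained replicate 3 alone called 26.9% of domain windows, and without it the difference was -3.17. The Tfcp2l1 domain was called at 0.368% against 13.7%, with crystal violet libraries at 0% to 1.96% and unstained libraries at 0% to 58.8%. Pou5f1 was at 0.368% against 3.53% and Klf4 at 0.875% against 5.20%. These 3 domains had exact permutation p-values of 0.0476, 0.0209 and 0.0211, and adjusted p-values of 0.115, 0.0987 and 0.0993. The count of 3 of 8 lies near the 41.7% of blocks with an unadjusted p under 0.05. No domain was called, against 2.88% of blocks (36) called lower with crystal violet. That number of blocks was 0 without unstained replicate 2 or 3, 7 without replicate 4, 98 without replicate 1 and 106 without replicate 5. As share minus that of the chromosome, the mean difference was -1.33 points with 4 domains higher with crystal violet. On that measure Klf4 was higher with crystal violet by 4.73 points (exact permutation, adjusted p = 0.0489), 1 domain of 8 against 23% of blocks called higher. As a plain share Klf4 was lower with crystal violet, as given above. On that measure the mean over domains was 0.0848 ± 0.374 (SD) with crystal violet and 1.41 ± 9.60 in unstained libraries.

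In the proteinase K titration the lowest p was that of Tfcp2l1. With 4 µl it was called at 20.4% ± 15.1 (lowest 0%, median 25.5%, highest 37.3%, n = 7) and with 8 µl at 2.24% ± 4.45 (lowest 0%, median 0%, highest 11.8%, n = 7), with an exact permutation p of 0.0210 and an adjusted p of 0.869. Over all domains, 4 µl gave 13.96% ± 7.26, 3 µl 12.9% ± 7.26 and 8 µl 4.65% ± 6.20. The differences from 8 µl, whose libraries both comparisons share, were 9.31 ± 3.61 and 8.20 ± 3.61 points. As share minus that of the chromosome they were 3.72 and 3.73 points. No domain was called in either comparison, against 0% of blocks, and 1 and 0 domains had an unadjusted p under 0.05. This was so of 4.49% of blocks for 4 µl and 3.04% for 3 µl.

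Eosin in ethanol gave 8.27% ± 5.43 and eosin in water 5.69% ± 3.83 (n = 8 each), a difference of 2.59 ± 2.35 points with 5 domains higher. As share minus that of the chromosome it was 0.306 points with 4 higher. In the full collection, 4np libraries called 1.92% ± 5.39 (n = 34) and water controls 5.94% ± 13.7 (n = 6), a difference of -4.02 ± 5.67, and -0.992 as share minus that of the chromosome. On the log2 scale the difference was -0.64, with 1 domain higher in 4np libraries. The sign of the mean difference in shares turned without water control replicate 4. The water mean was then 0.349% ± 0.418 and the difference 1.57, with all 8 domains higher in 4np libraries. When 4np replicate 14 was left out as well, the 4np mean was 1.14% ± 2.96 and the difference 0.791, with 7 domains higher. Both omissions were chosen after seeing the data. The median share of domain windows was 0.249% in 4np libraries and 0.373% in the 6 water controls. In both comparisons 0 domains were called by the permutation test against 0% of blocks. At an unadjusted p under 0.05 there were 0 domains in both, against 4.73% of blocks for eosin and 2% for the full collection.

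**Figure D5:**
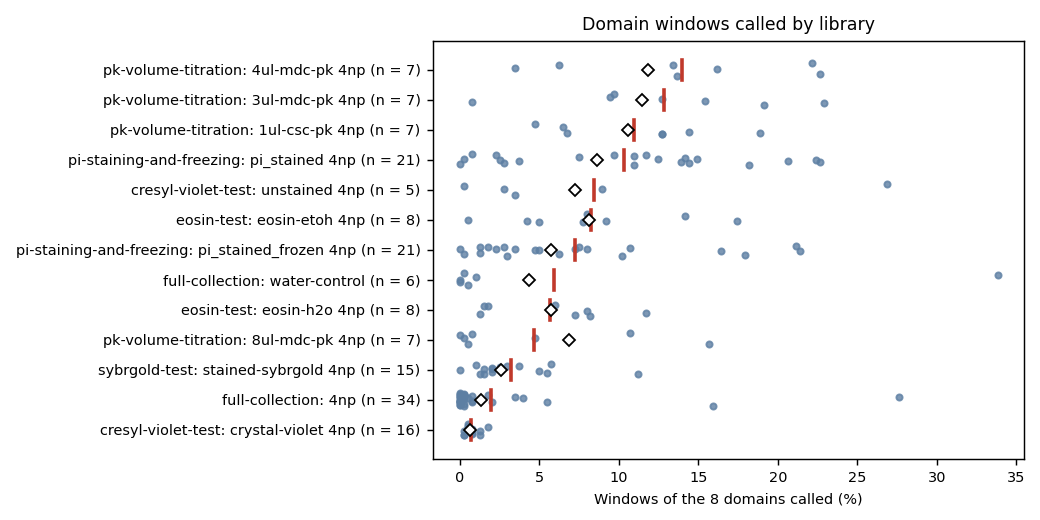
Share of the 402 domain windows called (percent) in each library of the groups with at least 5 libraries. Points are libraries, red bars group means, and diamonds the mean of the rest of the same chromosomes. Crystal violet libraries all lie at or below 1.74%, and 1 water control of the full collection lies at 33.8%.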

How the data were processed

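DNA of microdissected nuclear profiles of 46C mouse embryonic stem cells was amplified (Sigma WGA4) and sequenced. The deposited table holds a score per 40 kb window and library, 1 for called and 0 for not. The authors mapped to mm9 with Bowtie2 (version 2.1 in the submitters' processing notes), dropped duplicates (Samtools) and called windows with GAMtools at a fixed number of reads, as the paper describes. The libraries had failed the authors' quality control, whose passing libraries are not analysed here. The table gives no reads, so depth is unknown, and a low-coverage library adds little precision. Intervals and limits cover counting error only.

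Windows were annotated with GENCODE M1 and GC content from NCBIM37 (mm9), whose chromosome lengths equal the last window ends. Promoters were read from that assembly. Groups followed the sample titles. Windows with at least 50% determined bases on chromosomes 1 to 19 and X were kept (63918 of 65983).

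Domain detection was tested by two-sided sign-flip permutation over libraries (100000 patterns), conditions by two-sided permutation, exact where 200000 or fewer arrangements exist, and single windows by a two-sided exact Poisson-binomial test. P-values were Benjamini-Hochberg adjusted over all 1248 blocks (the 8 domains and all others of 51 windows) or all windows, and called at 0.05. D′ used windows called in at least 2 libraries. Linkage and pairs carried a jackknife SE over libraries, with a limit of 2 SE. Named are the 8 genes, the most and least called window of each domain, listed genes inside the domains and the 3 highest and lowest pairs. Zfp281, Rif1, Lhx1, the called windows and the condition values of single domains were chosen after their values were seen. The members and lists were chosen with earlier results of these data known. Python 3.11.15, numpy 2.4.6, pandas 2.3.3 and scipy 1.17.1 were used, and tests were tried on simulated data.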

Additional observations from a re-analysis of the deposited data

Results flagged for a closer look

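Among the 6 water controls of the full collection, replicate 4 called 33.8% of the 402 domain windows and stood apart from the others, its gap to the nearest being 0.971 of the whole range. Of 8 groups of 4 to 10 libraries tested this way it was the only such library, and chance gives about 1 in 20 groups. It called 40 windows of the Esrrb domain, 27 of Klf4 and 0 of Prdm14.

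In the SYBR Gold test, the water control labelled unstained called 24.4% of the domain windows, 35 of them in the Tfcp2l1 domain, and the water control of the cresyl violet test called 0.995%. Neither enters a comparison above, and both exceeded 0.746%, which is 3 windows of 402, the limit that a count of 0 allows. No pair of libraries shared calls beyond a phi coefficient of 0.195.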

How the results depend on the processing

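No paired analysis was possible because the labels carry no replicate numbers that groups share. For the values below the cause was not tested. Detection differences below are in percentage points. Tfcp2l1 turned in 1 of 29 alternatives, Prdm14 in 3, Nanog in 4, Pou5f1 in 5, Sox2, Sall4 and Esrrb in 6 each and Klf4 in 10.

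Within single experiments the detection differences that changed sign were -1.12 for Pou5f1 and -0.933 for Sall4 in the cresyl violet test, and -0.0635 for Pou5f1, -0.462 for Sall4, -3.40 for Esrrb, -1.20 for Prdm14 and 0.332 for Klf4 in the eosin test. They were -2.60 for Pou5f1, -3.72 for Sox2, -1.64 for Esrrb, -0.925 for Prdm14 and 5.77 for Klf4 in freezing after incubation, and -0.940 for Pou5f1, -2.33 for Sox2, -3.44 for Sall4, -1.34 for Esrrb and 2.19 for Klf4 in the cycle test. In the reagent volume test they were -0.170 for Pou5f1, -0.366 for Sox2, -0.0340 for Nanog and -0.367 for Prdm14. The proteinase K titration gave -2.78 for Sox2, -1.19 for Nanog, -3.04 for Esrrb and -2.87 for Tfcp2l1, the full collection -0.160 for Sox2 and 0.893 for Klf4, and the SYBR Gold test -1.54 for Sall4.

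Leaving out windows called in water controls gave -0.656 for Nanog and 0.430 for Klf4. That left 812 blocks to test, against 1248. Water control replicate 4 of the full collection alone called 22 Nanog and 27 Klf4 windows. Leaving out the proteinase K titration gave -0.0705 for Sall4 and 0.142 for Klf4, with 1 domain called above against 0.561% of blocks. Klf4 was at 0.0185 with all windows, 0.621 at 2 Mb on either side, 0.130 against all autosomes and 0.0163 without the SYBR Gold test, and Esrrb at -0.0453 at 2 Mb. On the log2 scale per library Sox2 was at -0.082, Nanog -0.20, Sall4 -0.31 and Esrrb -0.14, with a mean of -0.12 and 3 of 8 domains above the rest.

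Domains above the rest numbered 4 within the eosin, freezing after incubation and cycle tests, and 3 within the proteinase K and reagent tests. The mean difference over domains was 1.17 in libraries with at least 1% coverage, 1.03 at 0.5 Mb on either side, and within experiments 0.401 (cresyl violet), 0.176 (eosin), 1.51 (propidium iodide), 0.0953 (proteinase K), 0.520 (SYBR Gold), 4.03 (cycle test) and 0.0892 (reagent volumes).

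Linkage measured as log2 observed over expected had mean differences of -0.13 at 40 kb, -0.22 at 400 kb and -0.33 at 1000 kb, with 1, 3 and 3 domains below the rest, against 4.98%, 5.42% and 4.48% of blocks. Without the proteinase K titration the mean D′ differences were 0.0772, 0.0929 and 0.0135, with 1 domain above at each distance, against 2.99%, 3.74% and 3.41% of blocks. Without the early freezing test, or without freezing after incubation, 1 domain was above at 400 kb, against 4.21% of blocks in each case.

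Pairs above expectation were 1 with coverage of the chromosomes, 1 without the full collection and 0 without the proteinase K titration. Block pairs above numbered 17213, 13133 and 13173 of 645139 in these settings. Pairs below were 1 with coverage of the chromosomes (Sox2 with Nanog) and 1 without the SYBR Gold test (Sox2 with Prdm14). They were 3 without the full collection and 3 without the proteinase K titration. Block pairs below numbered 24460, 27504, 28704 and 36110 of 645139 in these 4 settings. Pairs with a ratio over 1 were 11 without the propidium iodide experiment and 5 without the proteinase K titration. With the share minus that of the chromosome, 1 domain was called between crystal violet and unstained, against 23% of blocks called higher. This was Klf4, 4.73 points higher with crystal violet, and Pou5f1 was 3.72 higher. As plain shares both were lower with crystal violet. Leaving out each unstained library in turn, the mean difference ranged from -9.82 to -3.17. The Sox2 window was called in neither alternative, so 0 gene windows were called. Of all 63918 windows, 181 were called above and 503 below with coverage over all autosomes. In libraries with at least 1% coverage these were 154 and 510, and the log2 ratio of the Pou5f1 window was 0.027.

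Calls without reads limit what these libraries can show: a window seen in 9 of 186 libraries has a wide interval, and tests over few captures of a domain rest on single caps.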

Other observations

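Groups that entered no comparison gave these shares of domain windows. The 2 frozen-late libraries called 10.7% and 20.6%, and the frozen-early library 8.46%. The 7 libraries with 1 µl of proteinase K labelled csc called 4.73% to 18.9%, and the 2 labelled mdc at 1 µl called 0%. The 25-cycle libraries called 17.2% and 18.9% of domain windows against 7.62% and 9.97% of the rest, the 23-cycle library 4.73% and the 20-cycle libraries 0.249% and 2.74%. The 15 libraries stained with SYBR Gold had a median of 1.99% and a highest of 11.2%. Titles and protocols disagree on staining in that experiment, and groups follow the titles.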
